A study of Mus musculus with 2 samples.

Results

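Opioid peptides, somatostatin and neuropeptide Y (NPY) act in the brain through 3 families of G-protein-coupled receptors. They couple to inhibitory G proteins of the Gi/o class, which lower cyclic AMP, open inwardly rectifying potassium (GIRK) channels and reduce calcium entry, so that the neuron fires and releases transmitter less readily. In the hippocampus their peptide ligands come largely from local GABAergic interneurons and, for the opioid peptides, also from granule cells of the dentate gyrus. The members described here are the 10 genes Oprm1, Oprd1 and Oprk1 (the mu, delta and kappa opioid receptors), Sstr1, Sstr2, Sstr3 and Sstr4 (somatostatin receptors), and Npy1r, Npy2r and Npy5r (receptors for NPY and peptide YY). They were taken by gene symbol, as 10 of 55536 annotated genes, and all 10 were found in every table.

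The study profiled total RNA from male B6CASTF1/J mice, a hybrid strain, at an age of 25 days. The tissue is hippocampus, which the labels call a layer of that structure, and 300 ng of RNA, with spike-in standards added, went into each library. It has 1 group with 2 biological replicates and no treatment, so no condition could be compared and no test was made. Both labels carry the same donor identifier and separate sample identifiers. The difference between them is therefore a spread between samples that may be technical. The libraries held 30635891 and 35713471 expected counts on annotated genes, an expected count being an estimate of the reads that belong to a gene. A count of 0 allows up to 3 counts, or a CPM of 0.0979 and 0.0840, and covers counting error only. Levels are in TPM, which divides counts by transcript length and brings each library to the same total, and are given for replicate 1 and then replicate 2.

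The tissue label was checked on marker genes. All 6 markers of the hippocampal fields were detected, detection meaning a mean of at least 1 TPM, from Grik4 at 25.93 and 24.15 TPM to Wfs1 at 81.18 and 72.88 TPM. Markers of neighbouring regions were present too. The 5 striatal markers summed to 28.25 and 31.80 TPM and all 5 were detected, led by Ppp1r1b at 19.33 and 21.16 TPM, with Drd1 at 1.82 and 1.76 TPM. The 4 thalamic markers were all detected and summed to 38.64 and 37.29 TPM, and the 3 neocortical ones, also all detected, to 42.25 and 44.39 TPM. In the medial habenula list 1 of 4 was detected, the sum was 11.65 and 10.28 TPM, and Chrnb4 lay at 0.03 and 0.09 TPM. The choroid plexus list had 2 of 5 detected and a sum of 53.34 and 66.50 TPM, nearly all from Ttr at 47.88 and 61.02 TPM. No marker of these lists was at 0 in both libraries. The part of these tissues in the receptor levels was not tested. In such bulk samples, fewer cells of a type and less RNA per cell cannot be told apart.

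All but 1 of the receptors were detected, and Sstr4 led. Of the 10, 9 reached a mean of 1 TPM and 6 reached 10 TPM, with a median of 11.7 TPM. Over all 22028 protein-coding genes the detected share was 58.9%, the share at 10 TPM or more was 36.8% and the median was 3.42 TPM. From Sstr4 to Oprk1 the mean level fell 58.8-fold. The somatostatin receptors summed to 72.4 ± 3.91 TPM (SD, n = 2), the NPY receptors to 34.4 ± 1.54 and the opioid receptors to 7.47 ± 0.877. The sums of the families did not overlap.

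**Figure D1:**
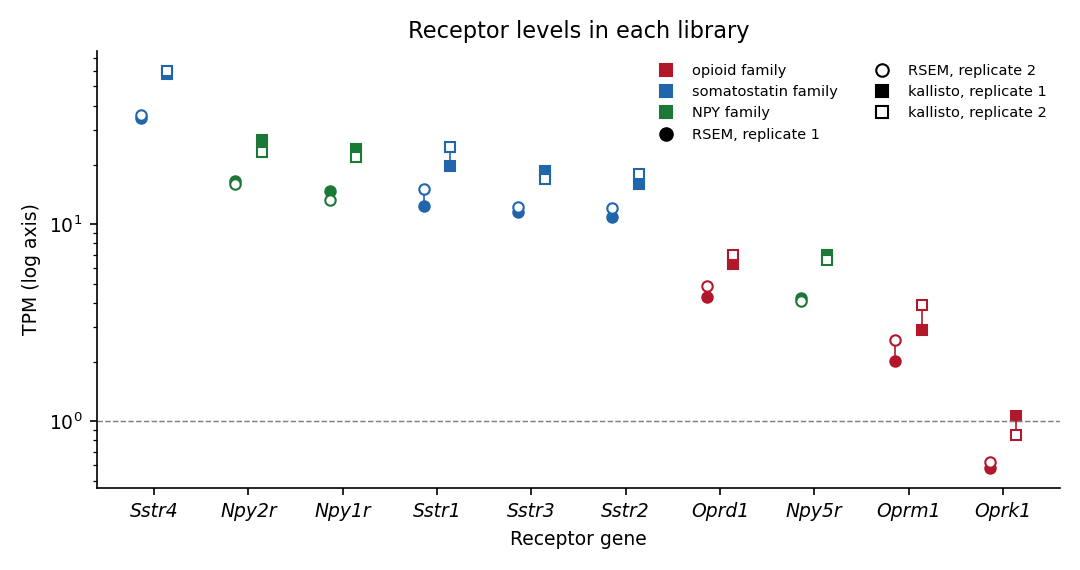
Level of each receptor gene (x axis, ordered by mean RSEM level) in TPM on a log axis, with filled symbols for replicate 1, open symbols for replicate 2, circles for the RSEM table and squares for the kallisto table. Sstr4 stands highest in all 4 series of values, Oprk1 lies lowest, and the dashed line marks 1 TPM, the limit for detection.

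Sstr4, which encodes a somatostatin receptor found mainly in forebrain neurons, was measured at 34.75 and 35.78 TPM from 959 and 1160 counts. It lies at chr2:148395344-148396767 on the plus strand (mm10) and consists of 1 exon of 1424 bases, 81.1% of them coding. The highest value of any other member was 16.48 TPM, so the Sstr4 values stood clear of the rest. It stood at 48.8% ± 1.63 (SD, n = 2) of the summed TPM of its family, and 85.9% of protein-coding genes had a lower mean TPM. Its lead over Npy2r was present per length and absent in counts. By TPM, Sstr4 was 2.11-fold and 2.25-fold above Npy2r, the next receptor, while the ratio of their counts was 0.959 and 1.01.

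The other 3 somatostatin receptors lay close together. Sstr1 (chr12:58211772-58214444, plus strand) was at 12.38 and 15.05 TPM from 490 and 705 counts. Sstr3, a receptor that localises to neuronal primary cilia (chr15:78537008-78544685, minus strand), was at 11.57 and 12.22 TPM from 1006 and 1138 counts. Sstr2, the main target of clinical somatostatin analogues (chr11:113619342-113626028, plus strand), was at 10.89 and 12.07 TPM from 461 and 593 counts. In TPM, both values of Sstr1 lay above both of Sstr3, by a narrow gap (12.38 against 12.22), while those of Sstr3 and Sstr2 overlapped. In counts, Sstr3 was above Sstr1 in both libraries. Sstr4 exceeded Sstr2 by 3.19-fold and 2.96-fold per length and by 2.08-fold and 1.96-fold in counts, so this difference had the same direction on both scales. Against Sstr3 it did not: the counts of Sstr4 (959 and 1160) and Sstr3 (1006 and 1138) overlapped. Sstr5, the remaining receptor of the family, had 0 and 3 counts (0 and 0.05 TPM), at or under the counting limit.

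The somatostatin receptors share stretches of coding sequence, which is where reads could in principle be shared out between them. Over 6 pairs, their coding sequences (leading transcripts) were 63.9 to 70.3% identical. The longest run of identical bases, sought over whole leading transcripts and not the coding part alone, was 23. The most alike 60-base window, in the part encoding the seventh membrane span, is shown here from the GENCODE M21 transcripts (mm10 positions), 5′ to 3′ on each gene's own strand, with capitals for the bases that differ from Sstr4. Against Sstr4, Sstr1 differed at 6 of the 60 bases, Sstr2 at 10 and Sstr3 at 12.
Sstr4, chr2:148396356-148396415: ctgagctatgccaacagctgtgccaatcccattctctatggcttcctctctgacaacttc
Sstr1, chr12:58213523-58213582: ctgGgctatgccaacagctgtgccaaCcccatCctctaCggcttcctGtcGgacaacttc
Sstr2, chr11:113625154-113625213: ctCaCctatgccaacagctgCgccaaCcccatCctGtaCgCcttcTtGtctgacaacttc
Sstr3, chr15:78539559-78539618: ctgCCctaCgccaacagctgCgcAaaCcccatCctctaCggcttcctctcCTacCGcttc
The deposited posterior SD of the count, a measure of doubt in sharing out reads between genes, was 0 for all 10 members in both libraries. The share of all genes with a value of 0 was not taken. The value therefore does not set these genes apart, and whether reads were shared between them was not tested.

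Among the NPY receptors, Npy2r and Npy1r were similar and Npy5r lower. Npy2r, a receptor known on presynaptic terminals of mossy fibres and CA3 axons (chr3:82538383-82548084, minus strand), was at 16.48 and 15.93 TPM from 1000 and 1154 counts. Npy1r, the mainly postsynaptic receptor (chr8:66697192-66706792, plus strand), was at 14.77 and 13.27 TPM from 869 and 925 counts. Npy5r (chr8:66679965-66688128, minus strand) was at 4.22 and 4.09 TPM from 184 and 197 counts. Npy5r and Npy1r are neighbours on opposite strands, with 9063 bases between them. Within this pair, Npy1r was 3.50-fold and 3.24-fold above Npy5r per length and 4.72-fold and 4.70-fold in counts. The other receptors of the family, Npy4r with 1 and 1 counts and Npy6r with 1 and 0, lay under the counting limit. NPY receptor coding sequences were the least alike of the families, at 57.7 to 61.1% identity over 3 pairs. Their longest shared run, over whole leading transcripts, was 12 bases.

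The opioid receptors were the lowest family. Oprd1, the delta receptor for enkephalins (chr4:132110726-132144486, minus strand), was at 4.25 and 4.88 TPM from 347 and 468 counts. Oprm1, the mu receptor and main target of morphine (chr10:6758506-7038198, plus strand), was at 2.02 and 2.59 TPM from 83 and 107 counts. Oprk1, the kappa receptor for dynorphins (chr1:5588466-5606131, plus strand), was at 0.58 and 0.62 TPM from 50 and 51 counts. The libraries gave the same order of the 3, with no overlap. Oprd1 stood at 61.2% ± 1.22 (SD, n = 2) of their summed TPM, and exceeded Oprm1 by 2.10-fold and 1.88-fold per length and by 4.18-fold and 4.37-fold in counts. Oprm1 exceeded Oprk1 by 3.48-fold and 4.18-fold per length, and by 1.66-fold and 2.10-fold in counts.

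The size of the Oprm1 level depended on the estimate. Its deposited posterior mean TPM was 4.21 and 4.88, or 1.97 times the TPM used here, and the deposited intervals of 3.06 to 5.50 and 3.34 to 6.62 lay wholly above that TPM. Over protein-coding genes detected at 1 TPM the median of this ratio was 0.997 and its 95th percentile 1.22. By posterior mean, Oprm1 therefore overlapped Oprd1, at 4.12 and 4.75. In the kallisto values Oprm1 lay under Oprd1, at 2.90 and 3.91 against 6.26 and 7.01 TPM. As the estimates differ, the order of mu and delta cannot be read as settled. Oprm1 has 31 annotated transcripts, the most of the 10 genes, against 1 for Oprd1.

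The fourth opioid-family receptor, Oprl1, which binds nociceptin, was higher than the 3 members. It was measured at 19.00 and 20.47 TPM, 4.47-fold and 4.19-fold above Oprd1 per length. The 3 members were 68.0 to 70.2% identical to each other in coding sequence. Their most alike 60 bases encode the end of the third membrane span, shown 5′ to 3′ with capitals for bases that differ from Oprd1. Oprk1 differed from Oprd1 at 6 of the 60 bases and Oprm1 at 8.
Oprd1, chr4:132117255-132117314: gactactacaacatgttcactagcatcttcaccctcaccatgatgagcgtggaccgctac
Oprm1, chr10:6829039-6829098: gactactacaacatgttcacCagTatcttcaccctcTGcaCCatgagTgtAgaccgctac
Oprk1, chr1:5598744-5598803: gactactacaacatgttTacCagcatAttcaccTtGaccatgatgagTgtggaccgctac
Between families, the 33 pairs of coding sequences were 55.0 to 62.6% identical. Over whole leading transcripts, non-coding parts included, no shared run was longer than 19 bases.

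In the order of levels, 7 of 9 neighbours did not overlap between libraries in TPM. The overlapping neighbours were Npy1r with Sstr1 and Sstr3 with Sstr2. Neighbours were ranked by these same values, and no such share was taken over all genes. Some gaps were narrow, at 12.38 against 12.22 TPM for Sstr1 and Sstr3, and 4.25 against 4.22 for Oprd1 and Npy5r. A second table, in the columns of kallisto for the same libraries, separated 5 of these 9 neighbours as well as RSEM did: Sstr4 from Npy2r, Sstr1 from Sstr3, Sstr2 from Oprd1, Npy5r from Oprm1, and Oprm1 from Oprk1. In that table Oprd1 (6.26 and 7.01 TPM) and Npy5r (6.96 and 6.60 TPM) overlapped. Intervals that RSEM deposited with its levels separated only 3 neighbours, placing Sstr4 above Npy2r, Sstr2 above Oprd1, and Oprm1 above Oprk1. Kallisto TPM of the members were 1.45 to 1.67 times those of RSEM, near the median of 1.57 over protein-coding genes detected at 1 TPM.

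Among the ligand genes, RNA of 7 of 9 was detected, where 58.9% of all protein-coding genes were. Sst, which encodes somatostatin, was the highest of them at 180.87 and 218.55 TPM, and Cort, which encodes the related cortistatin, was at 4.57 and 4.10. Npy was at 52.54 and 57.59 TPM, whereas Pyy had 0 and 1 counts and Ppy, for pancreatic polypeptide, 0 in both, all under the counting limit. Among the opioid precursors, Penk (enkephalins) led at 15.34 and 15.56 TPM. Pdyn (dynorphins) stood at 4.41 and 4.43 TPM and Pnoc (nociceptin) at 4.41 and 4.41. Pomc, the precursor of beta-endorphin, was lowest at 1.37 and 1.62 TPM, from 25 and 36 counts. By TPM, the precursor of each family that led stood in the same order as the receptor sums: somatostatin, then NPY, then opioid. These sums cover only the 4, 3 and 3 members, and the opioid sum leaves out Oprl1, the nociceptin receptor, at 19.00 and 20.47 TPM. An order of 3 families is a description only.

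**Figure D2:**
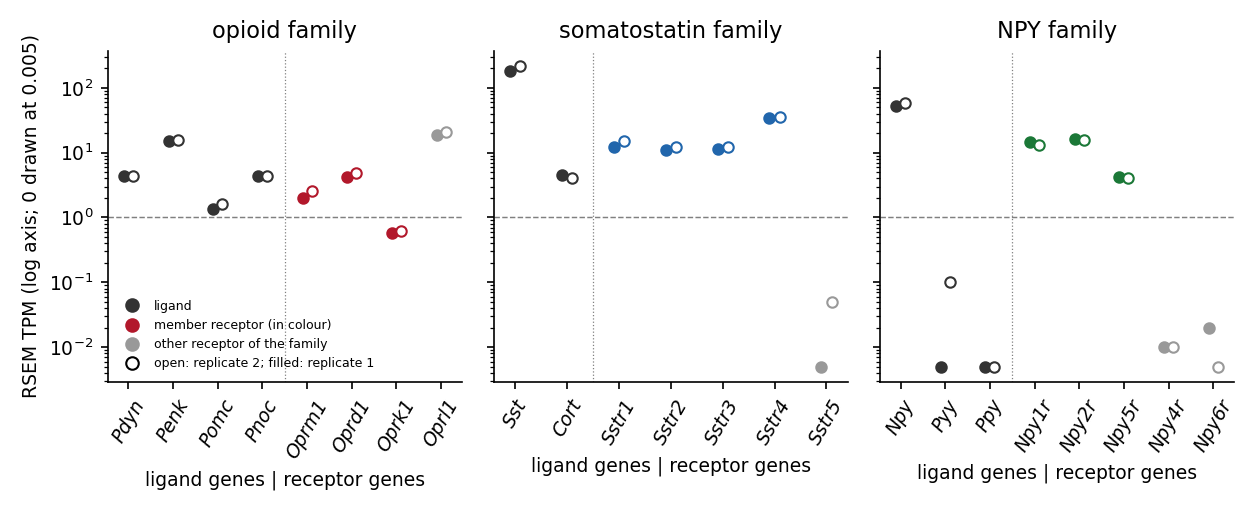
RSEM TPM on a log axis for the ligand genes (left of the dotted line) and receptor genes (right) of each family, filled for replicate 1 and open for replicate 2, with values of 0 drawn at 0.005. Sst and Npy stand above every receptor of their own family in both libraries, while Oprl1 stands above the opioid members, and Sstr5, Npy4r and Npy6r lie near 0.

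Genes that carry the receptor signal were well measured. All 5 Gi/o alpha subunits were detected, from Gnai3 at 13.45 and 13.85 TPM to Gnao1, the main neuronal subunit, at 310.32 and 309.55. Of 4 GIRK channel subunits 3 were detected, with Kcnj6 highest at 54.53 and 46.10 TPM and Kcnj5, best known from the heart, at 0.13 and 0.08. All 9 receptor kinases, arrestins and RGS proteins, which end or limit receptor signalling, were detected, from Grk5 at 4.42 and 3.19 TPM to Grk2 at 78.76 and 84.41. Of 5 ectoenzymes that cleave peptides 4 were detected, with Ece1 highest at 21.43 and 24.87 TPM and Dpp4 lowest at 0.41 and 0.58. Together with the ligands and the other receptors of these families, 29 of 36 such genes reached 1 TPM, where 58.9% of all protein-coding genes did. Of the other receptors of these families, 1 of 4 did.

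Beside 34 other neuropeptide receptor genes, a list without Oprl1 and the other receptors of these 3 families, the somatostatin receptors, Npy1r and Npy2r ranked high. Of these 34, only Ntsr2, a neurotensin receptor known from astrocytes, at 92.54 and 93.27 TPM, and Adcyap1r1, the PACAP receptor, at 60.27 and 57.19, had a higher mean than any of these 6 members. In all, 18 were detected and 3 reached 10 TPM, with a median of 1.06 TPM, and Galr2 had 0 counts. The number of the 34 with a higher mean was 4 for Oprd1, 5 for Npy5r, 9 for Oprm1 and 20 for Oprk1. Nearest in level to Oprm1 was Trhr (2.52 ± 0.304 TPM, SD, n = 2), and nearest to Oprd1 and Npy5r was Cckbr (4.32 ± 0.304 TPM). The rank and nearest gene of Oprm1 hold for the TPM used here only, as its posterior mean was 4.55 TPM. Oprk1 was nearest to Tacr3, which differed between the libraries (0.41 and 0.94 TPM). Mchr1 (9.07 and 11.28 TPM) was nearest to Sstr1, Sstr2, Sstr3, Npy1r and Npy2r, and Adcyap1r1 to Sstr4. With 2 libraries of 1 group these are likenesses of level alone.

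**Figure D3:**
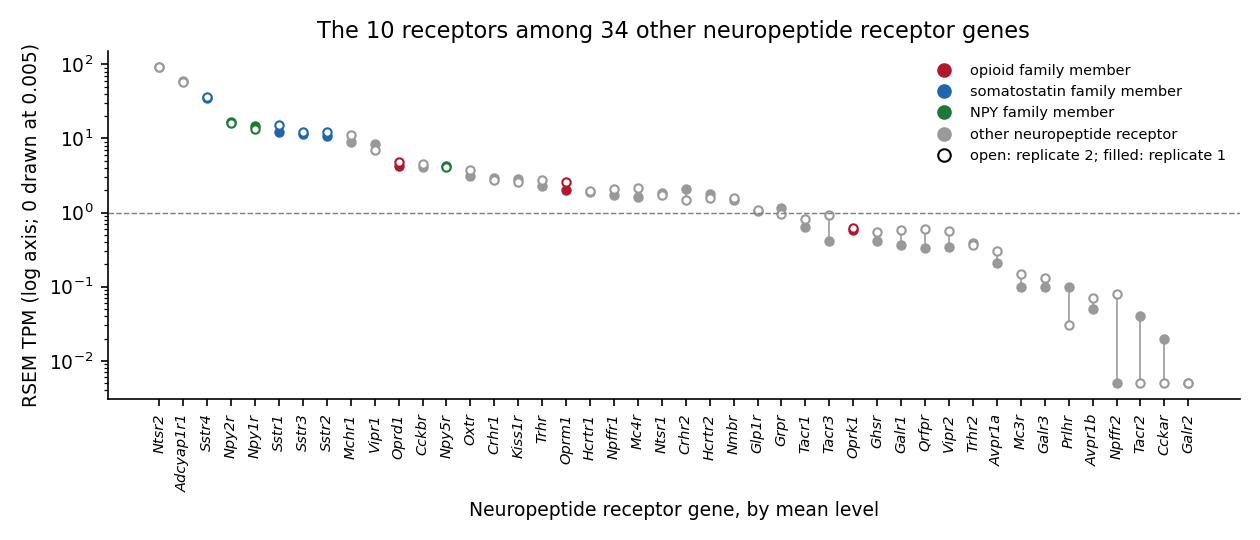
RSEM TPM on a log axis for 44 neuropeptide receptor genes ordered by mean level (Oprl1, at 19.00 and 20.47 TPM, Sstr5, Npy4r and Npy6r are not drawn), with the 10 members in colour and the 34 others in grey, filled for replicate 1, open for replicate 2, and values of 0 drawn at 0.005. Of the genes drawn, Ntsr2 and Adcyap1r1 lead, followed by Sstr4, Npy2r, Npy1r, Sstr1, Sstr3 and Sstr2, and Oprk1 falls under the dashed line at 1 TPM.

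In the RSEM table each gene was read mostly as 1 transcript, with Npy2r as the exception, whereas in kallisto the exception was Npy5r. The members have 54 annotated transcripts, of which 26 received counts in the RSEM table. A single transcript held 50% or more of the TPM in 9 of 10 genes, and the leader was the same in both libraries and both tables for all 10. No such share was taken over all genes, so this is not a trait particular to the members. Oprd1 and Sstr4 have a single annotated transcript, so their share and their leader were fixed in advance. For Npy2r, Npy2r-201 took 42.9% ± 1.87 (SD, n = 2), with Npy2r-202 at 6.32 and 6.13 TPM and Npy2r-204 at 3.30 and 2.76. Each of these 3 carries a coding sequence of 1143 bases. The kallisto table gave Npy2r-202 nearly nothing (0.0338% and 6.94e-07% of the gene) and Npy2r-201 67.2%. It placed 18.2% of the gene in replicate 1, from 76.2 counts, and 0 in replicate 2 on Npy2r-203, which has a shorter coding sequence of 804 bases and had 0 counts in RSEM.

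**Figure D4:**
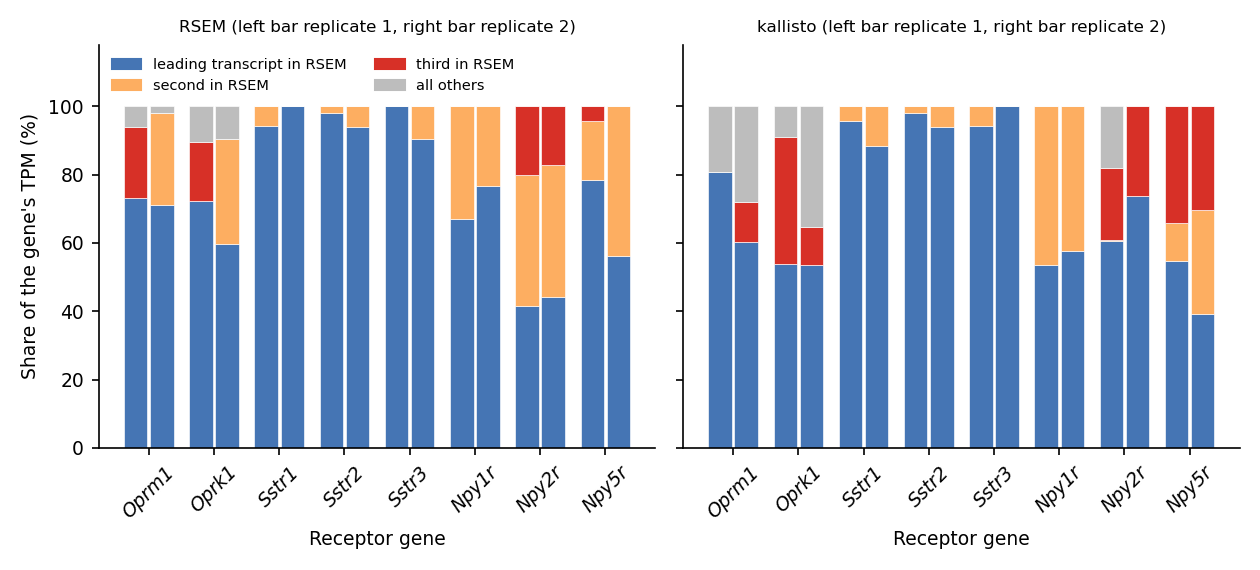
Share of each gene's TPM (y axis, %) taken by its transcripts in the RSEM table (left panel) and the kallisto table (right panel), with replicate 1 as the left bar and replicate 2 as the right bar of each pair, and colours for the rank in RSEM. The leading transcript is above 50% in RSEM for every gene drawn except Npy2r, and in kallisto the leading share of Npy5r drops to 47.0% on average.

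Splicing at the 3′ end of the coding sequence tells apart the 2 known forms of Sstr2. Sstr2-203, the long form of 369 codons that is not spliced at this end, held 455.06 and 567.68 counts, and 96.1% ± 2.92 (SD, n = 2) of the TPM. Sstr2-202, the spliced form of 346 codons, held 5.94 and 25.32 counts and 0.20 and 0.72 TPM, and Sstr2-201, with the same coding end, held 0. Both forms share their first 994 coding bases. The last 30 of these are given in lower case. The coding bases that follow in each form, called its own bases here, are in capitals without the stop codon. Those of Sstr2-202 are not unique to it as RNA. They also lie in the transcript of Sstr2-203, past its coding end, and only the junction and their use as coding sequence differ.
Sstr2-203, own bases chr11:113625251-113625363: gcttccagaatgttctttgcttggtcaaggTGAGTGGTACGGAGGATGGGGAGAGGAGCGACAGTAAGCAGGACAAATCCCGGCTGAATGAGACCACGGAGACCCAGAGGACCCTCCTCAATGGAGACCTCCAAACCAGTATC
Sstr2-202, own bases chr11:113625590-113625633: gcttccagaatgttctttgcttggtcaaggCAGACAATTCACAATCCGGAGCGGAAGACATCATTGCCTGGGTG
The share of the short form was 1.84% and 5.97%, and kallisto gave 1.96% and 6.05%. Sstr2 lies within Slc39a11, read from the opposite strand at 9.94 and 8.57 TPM, but shares 0 exonic bases with it.

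For Oprm1, Oprm1-215 led with 72.2% ± 1.57 (SD, n = 2) of the TPM, from 70.13 and 102.11 counts. It encodes 398 codons in 4 coding exons and ends in the sequence of the classical mu receptor. Among alternative coding ends joined at coding base 1158, RSEM gave counts to that of Oprm1-213 alone, with 3.85 and 0. Kallisto gave 5.38 and 0 to Oprm1-213, and also 7.56 and 2.08 to Oprm1-230 (9.63% and 1.66% of the gene), which had 0 in RSEM. Oprm1-216, which shares 1159 coding bases with Oprm1-215 before its other end, had 0 and 1.74 in kallisto and 0 in RSEM. The lower case gives the 30 bases before the junction and the capitals the coding bases after it, called own bases here. Other transcripts can share them: Oprm1-203 and Oprm1-208 have the same 1194 coding bases as Oprm1-215.
Oprm1-215, own bases chr10:6849806-6849841: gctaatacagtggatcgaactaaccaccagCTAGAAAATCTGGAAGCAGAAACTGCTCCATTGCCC
Oprm1-213, own bases chr10:6839535-6839555: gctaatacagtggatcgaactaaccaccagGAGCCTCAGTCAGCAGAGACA
Oprm1-230, own bases chr10:6840566-6840634: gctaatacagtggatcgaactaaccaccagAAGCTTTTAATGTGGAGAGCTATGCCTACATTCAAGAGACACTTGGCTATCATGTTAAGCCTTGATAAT
The other Oprm1 forms rested on few counts, and the tables placed them differently. Oprm1-209, annotated for nonsense-mediated decay, had 9.02 and 0 counts in RSEM (0.42 and 0 TPM) but 0 and 6.97 in kallisto. Oprm1-229, with 0 counts in RSEM, had 0 and 8.16 in kallisto, or 13.2% of the gene in replicate 2. Oprm1-227, a non-coding transcript of 242 bases, had 0 and 2.45 counts in RSEM, which its short length turned into 0.70 TPM and 27.0% of the gene in replicate 2. The kallisto table gave Oprm1-227 0 counts in both libraries. Ipcef1 overlaps Oprm1 on the opposite strand, at 6.50 and 6.83 TPM, with 96 shared exonic bases, of which 0 lie in Oprm1-215. Whether the counting used strand is not given in the sources used here.

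In the remaining genes, transcripts of equal coding length shared most of the level. Npy1r-201 took 71.9% ± 6.92 (SD, n = 2) and Npy1r-202 28.1%, both with 1146 coding bases, and kallisto moved them to 55.6% and 44.4%. Npy5r-201 took 78.4% and 56.2%, and Npy5r-203, also with 1398 coding bases, 17.3% and 43.8%, in RSEM, so the libraries differed while their order held. In kallisto Npy5r-201 was at 54.7% and 39.3%, and Npy5r-202, at 4.27% and 0 in RSEM, came second with 34.1% and 30.5%. Npy5r-203 followed there at 11.2% and 30.2%, so the second form depended on the table. Oprk1-204 took 72.4% and 59.7% from 40.22 and 41.32 counts. Oprk1-201, with an equal coding length, was at 0 and 30.6%, the latter from 5.86 counts, and had 0 in both libraries in kallisto. That table placed 31.8% of replicate 2 on Oprk1-203, from 10.9 counts. In RSEM, 2 retained-intron forms, Oprk1-202 and Oprk1-205, stood at 10.3% and 3.23% and at 17.2% and 0. Sstr1-201 led at 97.1% ± 4.06 and Sstr3-201 at 95.2% ± 6.83 (SD, n = 2). Sstr1-202 was at 5.74% and 0 in RSEM and at 4.37% and 11.5% in kallisto. In RSEM, transcripts with a coding sequence made up 100% and 71.0% of Oprm1 and 72.4% and 96.8% of Oprk1. This share includes forms annotated for nonsense-mediated decay, such as Oprm1-209 at 20.8% of replicate 1. The means were 85.5% and 84.6%, against 99.2% and 69.5% in kallisto, and the gaps between libraries rest on few counts. In the other 8 genes the share was 100% in both tables.

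Sstr1, Sstr2, Sstr3, Sstr4, Npy2r and Npy5r have their coding sequence in 1 exon in the leading transcript, against 2 exons in Npy1r, 3 in Oprd1 and Oprk1, and 4 in Oprm1. RefSeq start sites (GRCm38.p6) gave 11 promoter windows of 300 bases for 8 of the members. Their GC content ran from 47.3% at Oprm1 to 79.3% at Oprd1, with a median of 57.7%, beside 52.7% over 32851 windows. Oprm1 and Sstr3 have more than 1 window each, and Sstr1 and Oprk1 have none. The Oprm1 windows that start at chr10:6788320 and chr10:6788326 nearly coincide, so the 11 windows are not independent. The letters TATAAA, searched on both strands, were in 0 of the 11 and in 13.6% of all windows. The letters TGACGTCA, which read the same on both strands, were in that of Sstr2 and in 1.79% of all windows. A match is a description of the letters and not of binding.

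The replicates lay close for these genes. After scaling by the trimmed mean of M values (TMM), the log2 ratio of replicate 2 over replicate 1 ran from -0.18 for Oprk1 to 0.32 for Sstr1, and 6 of 10 were above 0, where 54.1% of all genes with a mean of at least 50 counts were. At a mean of at least 100 counts, 0 of 8 members were over 2-fold apart, where 101 of 12719 genes (0.794%) were. At a mean of at least 50 counts, which takes in all 10, it was 0 of 10, where 230 of 14240 genes (1.62%) were. The members' counts were thus near the background. Sstr1, with the highest ratio, was at 490 and 705 counts, and its ligand Sst at 2343 and 3326. The 6 interneuron markers summed to 256.42 and 272.46 TPM. Their part in that ratio was not tested. Scaled to the spike-ins, the ratios ran from -0.37 to 0.13 with 2 of 10 above 0, as that scaling moved the median of all genes with a mean of at least 100 counts from 0.02 to -0.17.

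**Figure D5:**
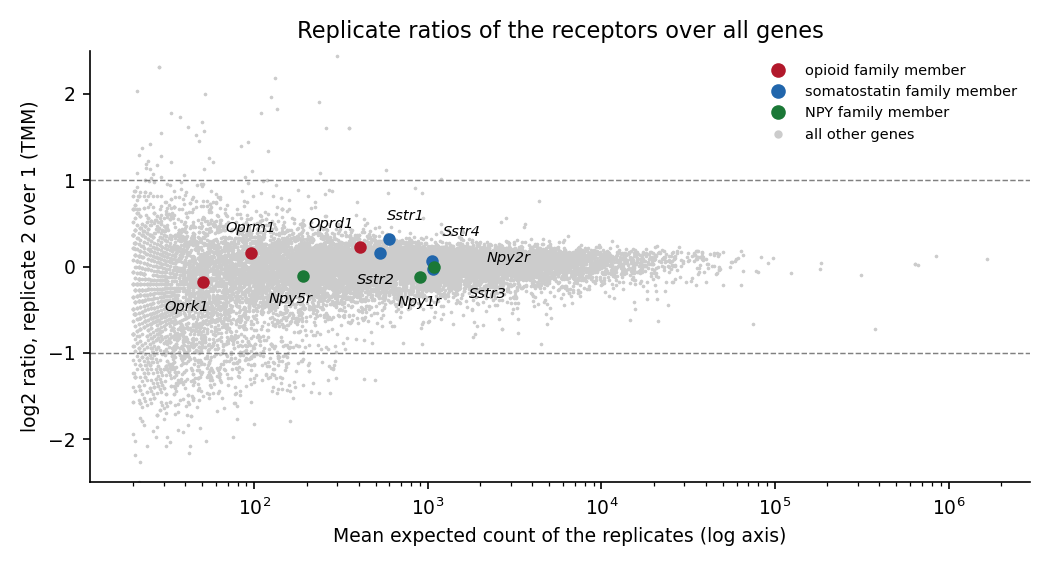
Log2 ratio of replicate 2 over replicate 1 after TMM scaling (y axis) against the mean expected count (x axis, log) for genes with a mean of at least 20 counts, with the receptors in colour over all other genes in grey. All 10 receptors lie between the dashed lines at 2-fold, and the y axis leaves out 21 of the grey genes.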

How the data were processed

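Text notes that the authors deposited beside each sample name mm10 as the build and GENCODE M21 as the annotation. For the aligner and all program versions, nothing is given in the sources used here. Per the file headers, the authors deposited expected counts and TPM per gene and transcript in RSEM's columns, and estimated counts and TPM per transcript in kallisto's columns. Reads that match several features are shared out, and short transcripts gain TPM relative to their counts. TPM was scaled over all rows, spike-ins included. Rows that name no gene (6 and 2 counts, or 1.95e-05% and 5.58e-06% of all) stayed out of totals, as did the 112913 and 148536 spike-in counts.

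Kallisto values were summed per gene. Detection was a mean of 1 TPM. Log2 levels used a pseudocount of 0.1. For the replicate ratio, the expected counts, rounded, were normalised with edgeR 4.0.16 under R 4.3.3, using TMM factors. The prior count was 0.5. That step was tested on simulated data. Coding sequences were aligned with Biopython 1.88. Tables were made with Python 3.11.15 and pandas 2.3.3, and DESeq2 1.42.0 gave other size factors.

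The members and lists were chosen with earlier results of these data known. The text names all members, the ligands, the other receptors of these families, the highest and lowest gene of each other signalling or receptor list, the nearest receptor in level, and transcripts with at least 10% of a gene's RSEM TPM in a library. Other names, such as Sstr2-202, Oprm1-213, transcripts named for their kallisto values and the tissue markers, were chosen after their values were seen. With 1 group there was no test. Alternatives were kallisto values, posterior means, TPM over nuclear genes, other minimums, pseudocounts and scalings, and each replicate left out.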

Additional observations from a re-analysis of the deposited data

How the results depend on the processing

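In kallisto, the family sums were 11.0 TPM for opioid, 115.9 for somatostatin and 54.8 for NPY receptors, and the median log2(TPM + 0.1) of the members was 4.13 in place of 3.56. Over nuclear genes alone, the sums were 8.48, 82.1 and 39.0 TPM and the median was 3.74. A pseudocount of 1 gave a median of 3.66. By posterior mean TPM the opioid sum was 9.69 TPM.

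With each replicate left out in turn, the sums ran from 6.85 to 8.09, from 69.6 to 75.1 and from 33.3 to 35.5 TPM, and the median from 3.50 to 3.61. The count of members at 1 TPM was 9 in every alternative except the minimum of 0.5 TPM, where it was 10. Of neighbours in the order, 7 of 9 did not overlap in the main table and over nuclear genes, and 5 did not by kallisto, by posterior mean or by expected count. By expected count the order began Npy2r, Sstr3, Sstr4, Npy1r, Sstr1, and by posterior mean Oprm1 (4.55 TPM) lay above Oprd1 (4.44) and Npy5r (4.13). In 9 of 10 genes a leading transcript held at least 50% in all alternatives, but in kallisto the gene below was Npy5r (47.0%) and not Npy2r. No member was over 2-fold or over 1.5-fold apart in any scaling run. No paired analysis was possible because there is only 1 group. The minimum of 50 counts was chosen after seeing the data. Depth limits Oprk1, at 50 and 51 counts, and the minor transcripts of several members, which rest on fewer. Reads of the second parental strain of the hybrid were assigned on the mm10 annotation, and how this acts on a level was not tested.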
